A study of Mus musculus with 10 samples.

Results

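The BCL2 family genes described here are Bcl2, Bcl2l1, Mcl1, Bcl2l11, Bid, Bad, Bak1, Bax, Bmf and Bbc3. Members were taken by symbol, with every probe set of the array that the platform annotation assigns to that symbol alone. By that rule 9 of the 10 genes had a probe set, with 31 probe sets in all, out of 18193 genes with a probe set of a single symbol. Bax is not analysed here. All 9 genes, and 28 of their 31 probe sets, lay above the limit on low values used for testing, a mean of 3.17 on the log2 scale (a signal of 6.6).

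Proteins of the BCL2 family decide whether the outer membrane of the mitochondrion is permeabilised, the step that commits a cell to intrinsic apoptosis. Pro-survival members (Bcl2, Bcl2l1 which encodes BCL-XL, and Mcl1) hold the pore-forming effectors Bax and Bak1 in check, and the BH3-only members (Bcl2l11 which encodes BIM, Bid, Bad, Bmf, and Bbc3 which encodes PUMA) either occupy the pro-survival proteins or activate the effectors. Many BH3-only genes are controlled by transcription, while Bid and Bad are known mainly for control of the protein, by cleavage and by phosphorylation.

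The cells were mouse Lewis lung carcinoma (LLC) cells from the C57BL/6 strain, and 2 lines were used. The TDAG8 line stably expressed TDAG8 (gene symbol Gpr65), a receptor on the cell surface that senses protons, and the control line carried the control vector. After 12 h without serum in medium at pH 7.4 with albumin, cells of both lines received fresh medium of the same kind, either acid (pH 6.4) or neutral (pH 7.4), and were collected 4 or 12 h later. Each line was also sampled before treatment, which gave 10 groups with 1 Affymetrix Mouse Genome 430 2.0 array each. Every array carried an equal mixture of RNA from 4 independent cultures, so the spread between cultures was not measured, and the labels do not say whether a line was 1 clone or several.

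With no replicate arrays, the matched differences between conditions stood in for replicates: 4 pairs for pH (each line at each time) and 5 pairs for the line (each condition). The p-values therefore measure only the spread between these arrays. Signals are the deposited linear values, and differences are on the log2 scale after quantile normalisation with 2.4 added to each signal, which understates the change of weak probe sets. Signals of different probe sets are on different scales, so every difference was taken within a probe set. In whole cultures, fewer cells of a type and less RNA per cell cannot be told apart.

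Array quality was even, with a 3' to 5' signal ratio between 1.26 and 1.35 for Actb and between 0.76 and 0.84 for Gapdh, and median signals between 11.7 and 13.8. The single probe set of Gpr65 read 0.9 to 5.3 for TDAG8 cells and 0.3 to 4.9 for control cells, under the limit on low values, so it did not separate the lines; whether it covers the introduced sequence is not known here. Of the epithelial markers, 4 of 10 reached the limit, with Krt8 at 1242 to 2647.9 and Cdh1 near 0 (0.2 to 5.3), and of the lung epithelial markers 2 of 7 did, with Nkx2-1 at 0.5 to 9.2 and Sftpc at 0.5 to 10.4. Of the fibroblast markers 6 of 8 reached it, among them Col3a1 at 4432.7 to 6730.4 and Col1a2 at 6.7 to 20. Col1a1 stayed at 0.4 to 6.4 and Thy1 at 1 to 10. Of the leukocyte markers 5 of 9 reached it, with Cd14 at 37 to 71.7 and Csf1r at 24 to 35.2, while Ptprc, which defines the class, stayed at 1.2 to 6.3. Of the endothelial markers 2 of 8 did, Cdh5 at 6.3 to 12.6 and Kdr at 1.9 to 14.5, while Pecam1 stayed at 0.8 to 6.6.

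The stretches of 250 bases just upstream of the annotated starts of Bmf and Bcl2l11 are shown because these were the BH3-only genes with a probe set that fell at pH 6.4. They come from RefSeq, build GRCm38.p6. Bmf lies on the minus strand, with the stretch at chr2:118549687-118549936, and Bcl2l11 on the plus strand, with the stretch at chr2:128125788-128126037. Capitals mark the motif matches, searched on both strands.
Bmf: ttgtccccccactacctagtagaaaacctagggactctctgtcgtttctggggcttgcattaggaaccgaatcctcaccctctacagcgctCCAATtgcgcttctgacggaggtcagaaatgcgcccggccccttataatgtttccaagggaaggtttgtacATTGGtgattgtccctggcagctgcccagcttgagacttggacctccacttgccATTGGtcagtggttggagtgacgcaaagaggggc
Bcl2l11: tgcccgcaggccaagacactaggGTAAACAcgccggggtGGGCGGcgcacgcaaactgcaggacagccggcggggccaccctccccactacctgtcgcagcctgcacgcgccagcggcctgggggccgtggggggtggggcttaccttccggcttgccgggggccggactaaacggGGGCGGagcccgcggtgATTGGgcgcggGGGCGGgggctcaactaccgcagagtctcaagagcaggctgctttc

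The motifs searched were the GC box (GGGCGG), the E-box (CACGTG), the cAMP response element (TGACGTCA), the AP-1 site (TGACTCA), a forkhead site (GTAAACA) and the CCAAT box (CCAAT). None of these letter strings contains another. The Bmf stretch held 3 CCAAT boxes and no other match, with 54.0% G and C bases. The Bcl2l11 stretch was richer in G and C (72.0%, against a median of 52.4% over all stretches) and held 3 GC boxes, 1 CCAAT box and 1 forkhead site. Among the 32851 stretches of the same length, 33.8% held a CCAAT box, 32.7% a GC box and 3.17% the forkhead site, and 6.02%, 1.55% and 4.46% held the E-box, the cAMP response element and the AP-1 site. The table lists other starts too, and the matches differ between them: of the 3 starts of Bmf, the stretch shown held 3 CCAAT boxes and the others 1 and 0, and the second start of Bcl2l11 held 2 GC boxes, 2 CCAAT boxes and no forkhead site. The outermost start is shown for each gene. A match describes these letters and is not evidence of binding.

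Among the BH3-only genes, Bmf, which links the cytoskeleton to the death machinery through its binding to a dynein light chain, was lower at pH 6.4 in both lines and at both times. At pH 7.4 its probe set 1454880_s_at read 55.3 at 4 h and 86.8 at 12 h for TDAG8 cells, and 38.5 and 60.9 for control cells. At pH 6.4 it read 17.1 and 33.6 for TDAG8 cells, and 15.4 and 9.9 for control cells. The lowest value at pH 7.4 lay above the highest at pH 6.4, so the groups did not overlap. Before treatment the signals were 41.1 and 27.4 in the TDAG8 and control lines, below all pH 7.4 arrays of the same line and above all its pH 6.4 arrays.

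The fitted difference for Bmf was -1.54 on the log2 scale (SE 0.20, 4 pairs, limma adjusted p = 0.0177), a 2.91-fold lower level at pH 6.4. The pairs were -1.51 and -1.19 for TDAG8 cells at 4 and 12 h, and -1.26 and -2.21 for control cells. Bmf was the only one of the 9 genes to pass the test at an adjusted p under 0.05, and 10% of the 12161 genes tested passed it, so the share of members that passed was near the background. An unadjusted p under 0.05 was found for 3 of the 9 (Bmf, Bak1 and Bcl2l1), against 31.9% of all genes. Leaving out a pair kept the difference between -1.66 and -1.32, but Bmf passed only without the control 4 h pair (adjusted p = 0.0457). It did not pass without the TDAG8 4 h pair (adjusted p = 0.0585), the TDAG8 12 h pair (0.0665) or the control 12 h pair (0.0779). Few genes of any kind passed in these fits. Without the control 4 h pair 278 (2.29%) passed, without the TDAG8 4 h pair 44 (0.362%), and without either 12 h pair 0.

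The Bmf result rests on 1 of its 3 probe sets. The others, 1422995_at at 1.0 to 13.2 and 1458325_x_at at 0.4 to 5.1 over the 10 arrays, were under the limit on low values and were not tested. With the mean of all probe sets in place of the brightest one, the Bmf difference was -0.71 (adjusted p = 0.134).

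**Figure D1:**
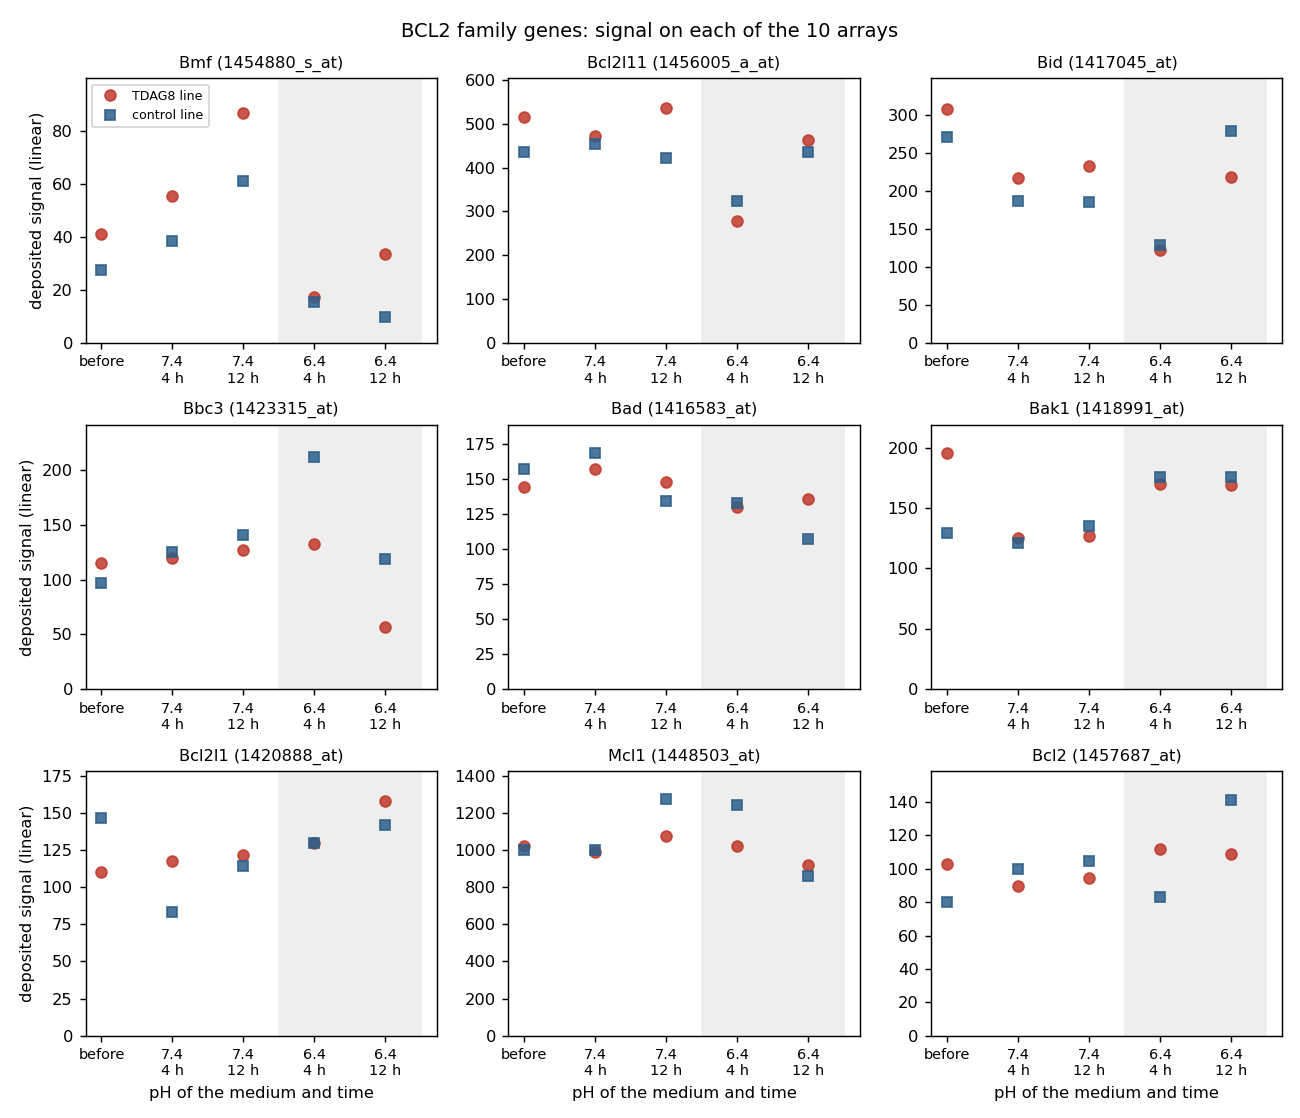
Deposited linear signal (vertical axis, from 0, with its own scale in each panel) of 1 probe set for each of the 9 genes on the 10 arrays; red circles are the TDAG8 line, blue squares the control line, and grey shading marks pH 6.4. Bmf lies between 9.9 and 33.6 at pH 6.4 and between 38.5 and 86.8 at pH 7.4, while Bid and Bcl2l11 have their lowest points at pH 6.4 after 4 h.

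Bcl2l11 encodes BIM, a BH3-only protein that can bind every pro-survival member. It was lowest at 4 h of pH 6.4. Its brightest probe set, 1456005_a_at, read 277.2 and 323.6 in the TDAG8 and control lines at pH 6.4 after 4 h, against 472.9 and 454.5 at pH 7.4. After 12 h it read 462.2 and 436.8 at pH 6.4 against 536.0 and 422.0 at pH 7.4. The 4 h values in acid were thus the lowest of the 10 arrays, and by 12 h the groups overlapped. Over all 4 pairs the difference was -0.33 (SE 0.16, adjusted p = 0.206).

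A second Bcl2l11 probe set, 1435448_at, fell at pH 6.4 in the fit of single probe sets. It read 154.4 and 303.3 for TDAG8 cells and 135.8 and 253.4 for control cells at pH 6.4 (4 h, then 12 h). At pH 7.4 the same order gave 327.1 and 408.6, and 292.7 and 369.4. The difference was -0.75 (SE 0.15, 4 pairs, limma adjusted p = 0.0364), lower in 4 of 4 pairs. The arrays overlapped only through the TDAG8 12 h value in acid, which lay above the control 4 h value at pH 7.4. In all, 4 of the 28 member probe sets passed this fit (14.3%), and 11.1% of the 22854 probe sets tested passed. The call was lost whichever pair was left out (adjusted p from 0.0833 to 0.112). At gene level, 0% to 2.29% of all genes passed with a pair left out. The call was also lost with median centring (adjusted p = 0.0692) and without the filter (0.0911).

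The 5 Bcl2l11 probe sets did not all move alike. At 4 h, 4 of them were lower at pH 6.4 in both lines, by values from -0.97 to -0.29 as the mean of the lines. The fifth, 1426334_a_at, was at 0.13, with 84.2 and 76.2 at pH 6.4 against 79.6 and 82.1 at pH 7.4. At 4 h, 35.0% of all probe sets tested were lower in both lines and 38.9% higher. These probe sets share a gene, so they are not independent measurements of it.

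Bid, which is cut by caspase-8 and carries the signal of death receptors to the mitochondrion, had its lowest signals at 4 h of pH 6.4 as well. Probe set 1417045_at read 121.9 and 129.3 in the TDAG8 and control lines there, against 217.4 and 187.2 at pH 7.4 and 307.1 and 270.8 before treatment. After 12 h it read 218.6 and 279.0 at pH 6.4 against 233.0 and 185.3 at pH 7.4. At 12 h the lines thus differed in sign on this probe set, with -0.13 for TDAG8 cells and 0.59 for control cells. On the other Bid probe sets both lines were above 0 at 12 h. For TDAG8 and control cells these were 0.22 and 0.35 on 1448560_at, and 0.235 and 0.044 on 1447873_x_at. At 4 h all 3 Bid probe sets were lower in both lines, with mean differences from -0.79 to -0.25, and at 12 h the means lay between 0.14 and 0.29. No Bid probe set passed at either time, and over the 4 pairs the gene's difference was -0.16 (SE 0.23, adjusted p = 0.675).

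Bbc3, which encodes the p53-induced activator PUMA, had the largest standard error of the 9 genes in the pH comparison. In acid it read 132.3 at 4 h and 56.5 at 12 h for TDAG8 cells, and 211.4 and 118.5 for control cells. At pH 7.4 the arrays stayed between 119.3 and 140.4. The highest and the lowest of the 10 Bbc3 values were therefore both at pH 6.4, the first for control cells at 4 h and the second for TDAG8 cells at 12 h. The difference over the pairs was -0.03 (SE 0.32, adjusted p = 0.961).

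Bad, whose protein is held inactive by survival kinases, moved little. Probe set 1416583_at read 107.4 to 135.8 over the 4 arrays at pH 6.4 and 134.4 to 168.5 at pH 7.4, lower in 4 of 4 pairs by -0.26 to -0.12. The fit gave -0.18 (SE 0.11, adjusted p = 0.293). The second Bad probe set, 1416582_a_at, was mixed in sign.

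Bak1, the effector that sits in the outer mitochondrial membrane, was higher at pH 6.4 by an amount that fell just outside the threshold. Probe set 1418991_at read 170.1 and 169.4 for TDAG8 cells and 176.2 and 175.7 for control cells at pH 6.4 (4 h, then 12 h). At pH 7.4 it read 125.1 and 126.9, and 121.3 and 135.2. The arrays did not overlap, and all 4 acid values lay close together. The difference was 0.50 (SE 0.11, 4 of 4 pairs higher, adjusted p = 0.0507), and it passed under 6 of 11 other settings. It passed in none of the 4 fits that left out a pair (adjusted p from 0.127 to 0.15), in which 0% to 2.29% of all genes passed. With the mean of its probe sets it was at 0.33 (adjusted p = 0.183).

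The TDAG8 line before treatment already read 195.4 for Bak1, above every acid array, while the control line before treatment read 129.0. The other Bak1 probe set, 1425716_s_at, read 23.3 to 53.6 and was mixed in sign over the pairs (0.15, SE 0.25, adjusted p = 0.706). The 2 probe sets disagreed most for TDAG8 cells at 4 h, with 0.55 and -0.56.

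**Figure D2:**
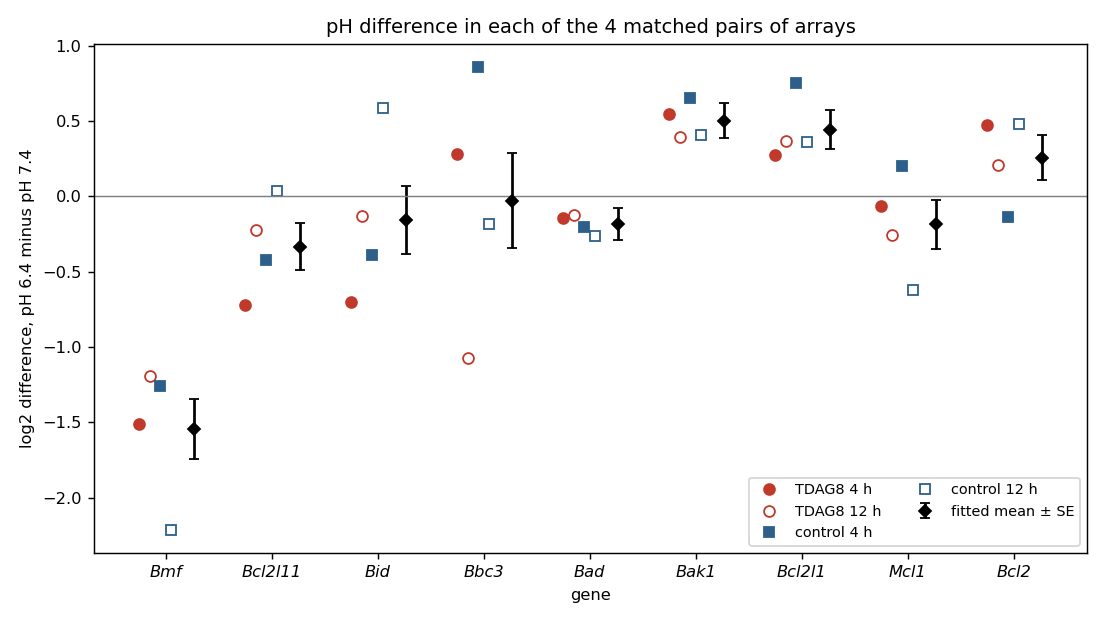
Difference between pH 6.4 and pH 7.4 (log2 scale, vertical axis) in each of the 4 pairs of arrays for the 9 genes; filled symbols are 4 h, open symbols 12 h, and black diamonds with bars are the fitted mean ± SE. All Bmf pairs lie at or below -1.19, all Bak1 and Bcl2l1 pairs lie above 0, and the Bid and Bbc3 pairs lie on both sides of 0.

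Among the pro-survival genes, Bcl2l1 was higher at pH 6.4 on each probe set that could be tested. Its product BCL-XL guards mitochondria in many epithelial and tumour cells. Probe set 1426191_a_at read 35.9 and 38.9 for TDAG8 cells and 39.1 and 52.3 for control cells at pH 6.4 (4 h, then 12 h), against 26.4 and 24.8, and 24.3 and 22.9, at pH 7.4. Probe set 1420887_a_at read 56.6 and 55.7, and 65.3 and 53.4, at pH 6.4, against 43.1 and 36.1, and 41.6 and 38.1, at pH 7.4. Neither probe set overlapped between the groups.

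Both of these Bcl2l1 probe sets rose in the single probe set fit, 1426191_a_at by 0.80 (SE 0.17, adjusted p = 0.0396) and 1420887_a_at by 0.65 (SE 0.12, adjusted p = 0.0296). The brightest probe set, 1420888_at, which stood for the gene, read 129.7 to 158.3 at pH 6.4 and 83.4 to 121.5 at pH 7.4, with a difference of 0.44 (SE 0.13, adjusted p = 0.0863 in the gene fit), higher in 4 of 4 pairs. Both calls of the single probe set fit were lost whichever pair was left out (adjusted p from 0.0813 to 0.117). At gene level, 0% to 2.29% of all genes passed with a pair left out. The calls of 1426191_a_at and 1420887_a_at were also lost with median centring (adjusted p = 0.0585 and 0.0656) and without the filter (0.0946 and 0.0843). On the values as deposited 1426191_a_at passed (adjusted p = 0.0494), and 1420887_a_at, at 0.51, did not (0.0576). Before treatment the brightest probe set, 1420888_at, read 110.6 and 146.8 in the TDAG8 and control lines, so the untreated control line lay within the acid range. The remaining probe set, 1426050_at, stayed at 0.6 to 7.4 and was not tested.

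Mcl1 encodes a short-lived pro-survival protein, and 6 probe sets measured it. The brightest, 1448503_at, read 1022.8 and 920.8 for TDAG8 cells and 1246.8 and 861.1 for control cells at pH 6.4, against 990.6 and 1076.6, and 1000.3 and 1276.1, at pH 7.4. The groups overlapped, and the difference was -0.19 (SE 0.16, adjusted p = 0.482). At 4 h, 5 of the 6 probe sets were higher at pH 6.4 in both lines after normalisation, as were 38.9% of all probe sets tested. Their mean differences lay between 0.28 and 0.48, and none passed. The brightest was at -0.07 for TDAG8 cells at 4 h after normalisation, although its deposited signal was slightly higher in acid. The 12 h mean was -0.44 on the brightest probe set and between -0.01 and 0.20 on the others, so the direction at 12 h depended on the probe set.

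Bcl2, the founding pro-survival gene, read 83.1 to 141.0 at pH 6.4 and 89.4 to 104.5 at pH 7.4 on probe set 1457687_at. The groups overlapped, with a difference of 0.26 (SE 0.15, adjusted p = 0.291) and 3 of 4 pairs higher. The other 4 probe sets gave differences from -0.01 to 0.44, and none of them passed.

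Over the 9 genes, the median pH difference was -0.16, against -0.003 over all genes tested. The arrays of the pH groups did not overlap for 3 of the 9 (Bak1 and Bcl2l1 higher, Bmf lower), and this held for 24.9% of all genes tested. The sign was the same in 4 of 4 pairs for 4 of the 9, and for 42.2% of all genes. By role, the median of the 5 BH3-only genes was -0.18, that of the 3 pro-survival genes was 0.26, and the 1 measured effector was at 0.50. Each gene stood there as its brightest probe set, only Bmf passed, and a difference between the roles was not tested. Mcl1 entered at -0.19, against 0.17 to 0.28 on its other probe sets, and the other Bak1 probe set was at 0.15.

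Splitting the pH difference by time gave 0 of 9 genes past the threshold at 4 h, where 4 had an unadjusted p under 0.05 (29.2% of all genes did), and 1 of 9 at 12 h. Of all genes, 4.65% passed at 4 h and 23.4% at 12 h. Bmf was at -1.38 (SE 0.28, adjusted p = 0.0717) at 4 h and at -1.70 (SE 0.28, adjusted p = 0.0276) at 12 h, in a fit that left 2 residual degrees of freedom. Of the probe sets, 1 of 28 passed at 4 h, Bcl2l11 1435448_at at -0.97 (SE 0.12, adjusted p = 0.0399), against 4.64% of all probe sets. At 12 h 3 of 28 passed, against 19.9%: Bmf, and Bcl2l1 1420887_a_at and 1426191_a_at at 0.67 and 1.01 (adjusted p = 0.0369 and 0.0339). With a pair of the other time left out, each of these calls was lost. Few genes passed in such fits: 0 of 12161 at 4 h, and 781 (6.42%) at 12 h. Leaving out a pair of the same time left 1 pair there, so those fits cannot decide how well a call holds.

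The difference between the times was tested itself. In limma it passed for 0 of 9 members and 0 of 12161 genes, of which 3135 (25.8%) had an unadjusted p under 0.05. Fitting the variance with a trend and robustly, it passed for 1836 genes, Bbc3 among them. Bbc3 had the largest change among the members, from 0.57 at 4 h to -0.63 at 12 h, a difference of -1.20 (SE 0.40, adjusted p = 0.173, and 0.0417 with the trend). Bid went the other way, from -0.54 to 0.23 (0.77, SE 0.31, adjusted p = 0.221). Bcl2l11 went from -0.57 to -0.09 (0.48, SE 0.20, adjusted p = 0.234), and Mcl1 from 0.07 to -0.44 (-0.51, SE 0.22, adjusted p = 0.239).

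**Figure D3:**
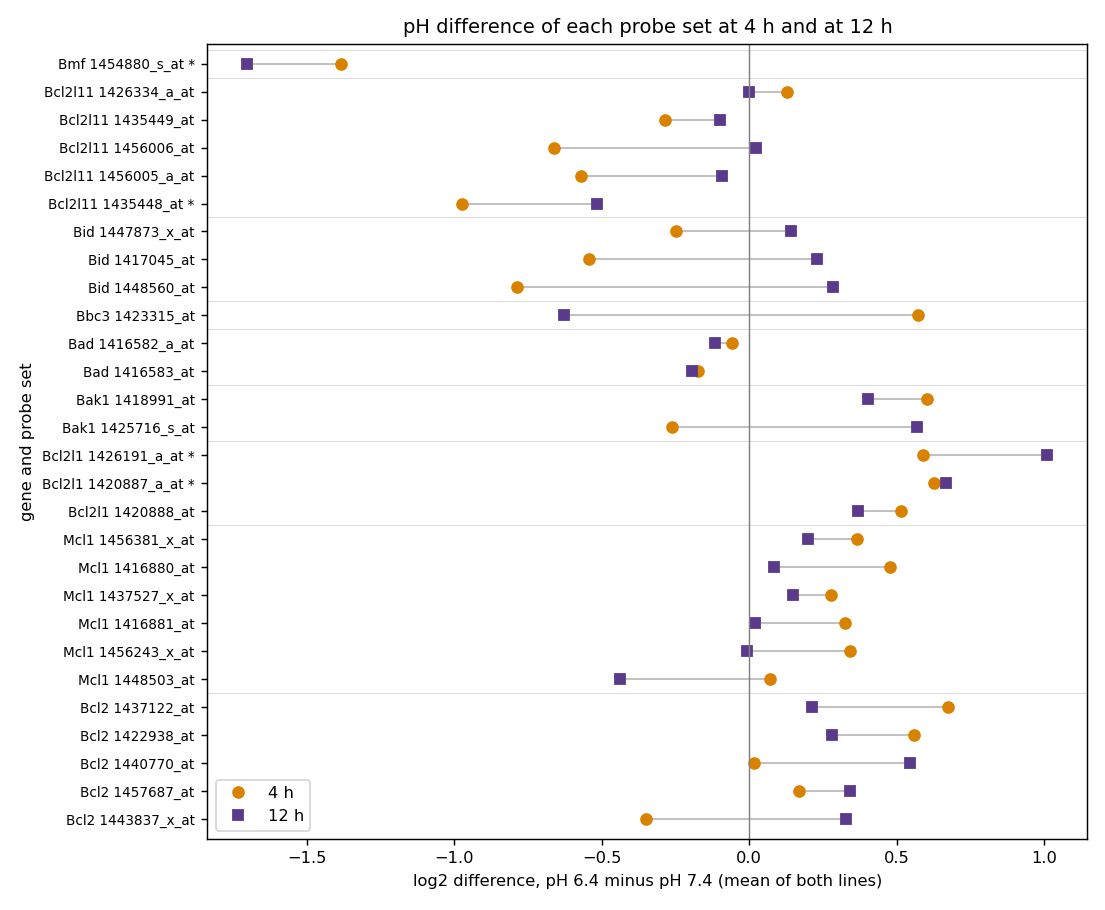
pH difference (log2 scale, horizontal axis, mean of both lines) of the 28 tested probe sets at 4 h (orange circles) and 12 h (purple squares), ordered by role; an asterisk marks the 4 probe sets that passed the fit over all 4 pairs. Every Bid probe set is below 0 at 4 h and above 0 at 12 h, every Bcl2l1 probe set is above 0 at both times, and Bmf is below -1 at both.

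The pH responses of the lines did not differ past the threshold for any member, in a fit that left 2 residual degrees of freedom. The test of that difference passed for 0 of 9 members and 0 of 12161 genes, of which 339 (2.79%) had an unadjusted p under 0.05, and for 0 genes with a variance trend. Within a line, 0 genes passed in limma in either line, with 1901 (15.6%) at an unadjusted p under 0.05 for TDAG8 cells and 1922 (15.8%) for control cells. With a variance trend 74 and 27 genes passed, and no member.

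Bmf was at -1.35 (SE 0.29, adjusted p = 0.19) for TDAG8 cells and -1.74 (SE 0.29, adjusted p = 0.154) for control cells, and the difference between these was 0.39 (SE 0.42). Bak1 was at 0.47 and 0.53 (difference -0.06, SE 0.28), and Bcl2l1 at 0.32 and 0.56 (difference -0.24, SE 0.29). Bbc3 differed in sign between the lines, at -0.40 and 0.34 (difference -0.74, SE 0.61). So did Bid on its brightest probe set, at -0.41 and 0.10 (difference -0.51, SE 0.45). The other Bid probe sets did not split by line: in both lines they were below 0 at 4 h and above 0 at 12 h. For Bmf, Bak1 and Bcl2l1 the error exceeded the difference, and differences of these sizes between the lines were not detectable with this number of arrays.

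Across all conditions, 0 of 9 members differed between the TDAG8 and control lines in limma, against 1.20% of all genes, and 1 of 9 (Bmf) had an unadjusted p under 0.05, against 20.8%. Bmf was higher for TDAG8 cells in 5 of 5 pairs, by 0.42 before treatment, 0.43 and 0.52 at pH 7.4 (4 and 12 h), and 0.18 and 1.55 at pH 6.4. The mean was 0.62 (SE 0.20, adjusted p = 0.168, and 0.0485 with 32 added to each signal), with the pH 6.4 12 h pair, 33.6 against 9.9 in signal, far above the others. A single sign in 5 of 5 pairs was found for 22.3% of all genes. Without that pair the Bmf mean was 0.39. Bbc3 was lower for TDAG8 cells in 4 of 5 pairs (-0.35, SE 0.19, adjusted p = 0.337), and the other members lay between -0.04 and 0.10.

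Between 4 and 12 h, 0 of 9 members and 0 of 12161 genes passed in limma, with 1420 (11.7%) at an unadjusted p under 0.05 and 0 genes with a variance trend. The largest member differences were -0.49 for Bbc3 (SE 0.28), 0.43 for Bid (SE 0.20) and 0.42 for Bmf (SE 0.24). For Bid the increase lay in acid, with 0.67 and 0.96 in the TDAG8 and control lines at pH 6.4 and 0.10 and -0.02 at pH 7.4. For Bbc3 the decrease lay in acid too, with -1.28 and -0.89 at pH 6.4 and 0.08 and 0.15 at pH 7.4.

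Fresh medium at pH 7.4 for 4 h, set against the arrays before treatment, gives the change without acid; with 1 array on each side it has no test. On its brightest probe set Bid was lower by a like amount in both lines, at -0.49 for TDAG8 cells and -0.55 for control cells. Bmf was higher, at 0.43 and 0.41. Bak1 was at -0.62 and -0.11, and Bcl2l1 at 0.12 and -0.81, unlike in size or sign between the lines. Whether these changes differed by line was not tested. In deposited signal, Bak1 1425716_s_at was lower in both lines (53.6 to 37.9 for TDAG8 cells, 39.6 to 30 for control cells). So were Bcl2l1 1420887_a_at (46 to 43.1, and 46.7 to 41.6) and 1426191_a_at (27.8 to 26.4, and 32.7 to 24.3), and Bid 1448560_at (74.8 to 58.1, and 78.3 to 54.9). Bid 1447873_x_at was lower for TDAG8 cells (32.9 to 26.8) but higher for control cells (16.6 to 20.8). None of the 9 members moved beyond 0.58 in both lines, against 311 of the 12161 genes. The pH comparison and the comparison with untreated cells share the pH 7.4 arrays at 4 h.

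The genes whose log2 levels followed Bmf most closely over the 10 arrays were Zfp467 (Pearson r = 0.982), Jade2 (0.968), Srpk2 (0.961), Ube2b (0.958) and Prrg1 (0.957). Their pH differences were -1.91, -1.36, -0.42, -0.42 and -1.01. The arrays share the pH and time structure, and these values are a description of it.

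Other genes of the apoptosis machinery were followed in 7 lists with 72 tested genes in all, of which 7 passed as higher at pH 6.4 (Fas among them only through its acid arrays) and 3 as lower, against a background of 4.47% of all genes higher and 5.56% lower. In the rest of the BCL2 family, 2 of 10 rose, 1 fell and 7 did not pass (median 0.12). Pmaip1, which encodes the BH3-only protein NOXA, rose by 1.44 (SE 0.20, adjusted p = 0.0207), from 7.1 to 27.3 at pH 7.4 to 23.5 to 64.8 at pH 6.4. Bok, an effector-like member, rose by 0.64 (adjusted p = 0.0445; 218.8 to 291.5, then 335.6 to 419.7). Bnip3, a BH3-like protein of mitochondrial clearance, was at -1.12 (adjusted p = 0.0274; 564.9 to 770.9, then 244.3 to 478.1).

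So among the BH3-only genes, the pH difference of Pmaip1 was opposite in sign to that of Bmf. The Pmaip1 arrays overlapped between the pH groups, while Bnip3 and Bok did not. In the death receptor list, 2 of 9 passed as higher and 1 as lower (median 0.14). Tnfrsf10b, the mouse TRAIL receptor, rose by 2.01 (SE 0.27, adjusted p = 0.0185), from 5.7 to 13.3 at pH 7.4 to 33.9 to 49.9 at pH 6.4. Fas, another death receptor and the second of those passing as higher, read 15.7 to 21.6 at pH 6.4. At pH 7.4 it read 1.0 to 6.5, under the limit on low values, so it entered the test only through the acid arrays and its neutral level has only a bound. Against that limit it was at least 2.3-fold higher at pH 6.4 (at least 1.20 on the log2 scale), and its adjusted p of 0.0211 is no support beyond these signals. Tradd, an adaptor of tumour necrosis factor receptors, was at -0.58 (adjusted p = 0.0454).

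Downstream of the mitochondrion, 1 of 13 caspase and apoptosome genes rose: Casp6, an executioner caspase, by 0.51 (adjusted p = 0.0464), though by 0.12 with the mean of its probe sets, which did not pass. The other 12 did not pass (median of the list -0.13). Among the inhibitor of apoptosis proteins, 1 of 6 fell, Naip2, which is known as a sensor of bacterial proteins in the inflammasome, at -1.15 (SE 0.13, adjusted p = 0.0158; 58.8 to 91.1 at pH 7.4, then 26.8 to 31.4). Xiap, the main direct caspase inhibitor, was at -0.33 (adjusted p = 0.128).

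None of the 10 genes of the mitochondrial membrane passed (median 0.01, 1 at an unadjusted p under 0.05), and none of the 13 genes for binding partners and turnover of the family did (median 0, 3 at an unadjusted p under 0.05). In the latter list Dynll1, the dynein light chain, was at -0.62 (adjusted p = 0.11), and Dynll2, the light chain known to hold Bmf, at -0.11. Of 11 upstream regulators 2 rose: Myc by 1.14 (adjusted p = 0.0207; 898.2 to 1199.9 at pH 7.4, then 2047.3 to 2996.3) and Stat3, an activator of Bcl2l1 and Mcl1 in other cells, by 0.61 (adjusted p = 0.0415). Foxo3, a forkhead factor known to drive Bcl2l11, was at -0.31 (adjusted p = 0.22). In these lists no gene passed in the line, time, pH by line or pH by time comparisons in limma, with 16, 7, 1 and 20 of 72 at an unadjusted p under 0.05. For pH at 4 h, 2 of 72 passed as higher and 3 as lower, where 4.65% of all genes passed. For pH at 12 h, 8 passed as higher and 11 as lower, where 23.4% of all genes passed. Fas was not left out of these counts. Of the 10 calls for pH in these lists, that of Fas is set aside here, since it entered only through its acid arrays. Those of Tnfrsf10b, Naip2 and Myc held in 1 of the 4 fits that left out a pair, and the other 6 in none. That fit was the one without the control 4 h pair, where 2.29% of all genes passed, against 0% to 0.362% in the other fits. With 32 added to each signal the differences of the weak probe sets were smaller, at 0.85 for Tnfrsf10b, 0.68 for Pmaip1 and -0.72 for Naip2. With the mean of their probe sets Tradd was at -0.36 (adjusted p = 0.225) and Stat3 at 0.49 (adjusted p = 0.0761), and neither passed.

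**Figure D4:**
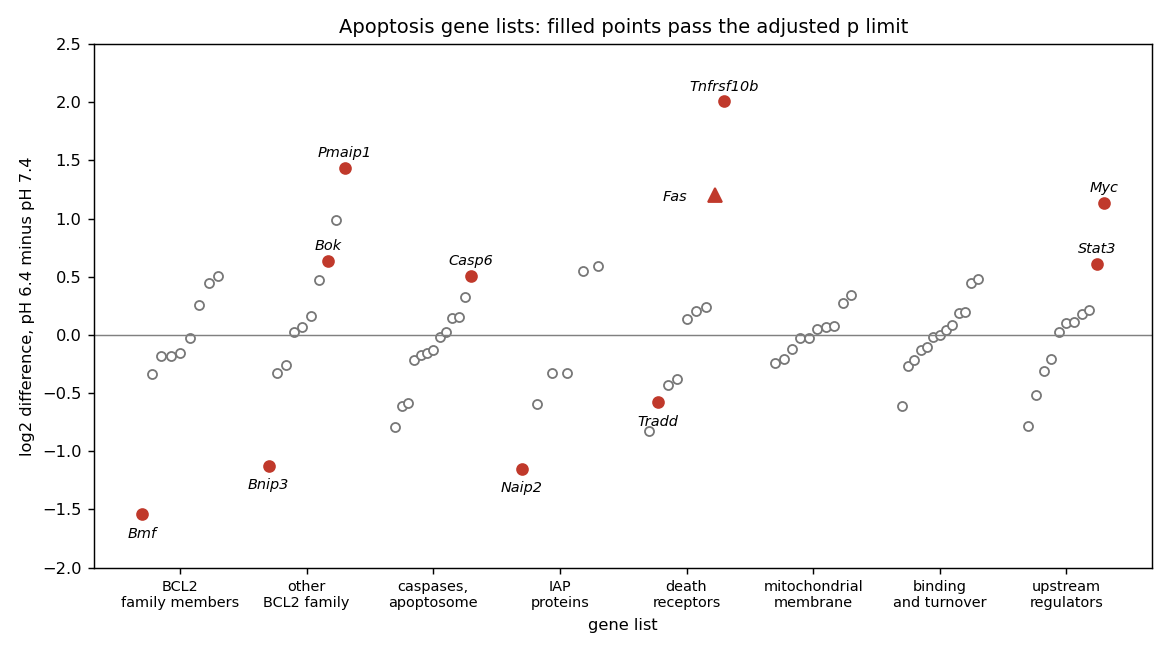
pH difference (log2 scale, vertical axis) of each tested gene in the BCL2 family and in 7 other apoptosis lists, ordered by value within a list; filled red points passed the test, open grey points did not, and the red triangle is the lower bound of Fas. Tnfrsf10b lies at 2.01, Pmaip1 at 1.44 and the bound of Fas at 1.20, while Bmf lies at -1.54.

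Of the 6 fibroblast markers tested for pH, 1 passed, against 10% of all genes. This was Pdgfra, lower in acid at -1.70 (limma adjusted p = 0.0144). Pdgfrb, Lum, Dcn and Col3a1 were at -1.22, -1.07, -0.89 and -0.17, Col1a2 was at 0.42, and none of these passed. The median difference over the 6 was -0.98. Split by time, 1 of the 6 passed as lower at 4 h (median -0.24), where 4.65% of all genes passed. At 12 h, 4 of the 6 passed as lower (median -1.57), where 23.4% of all genes passed. Summed over the list, the fibroblast marker signals ranged from 7423.3 to 9860.2 in acid and from 9772 to 13465.9 at pH 7.4. These ranges overlapped. The summed epithelial markers were 1299.5 to 2896.2 and 1646 to 2237.8, the lung epithelial markers 35.1 to 53.6 and 28 to 57, the leukocyte markers 122 to 146.6 and 103.1 to 144.6, and the endothelial markers 38.7 to 45.8 and 33.8 to 38. Their part in the BCL2 family differences was not tested.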

How the data were processed

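Expression was measured on 10 Affymetrix Mouse430 2.0 arrays, 1 per line and condition. The authors deposited a linear signal intensity per probe set; the 2% trimmed mean was 100 on every array, and the summary method is not given in the sources used here. Of 45101 probe sets, 34945 had 1 gene symbol, 932 several and 9160 none, and 64 were controls; those without a single symbol were left out. Signals were quantile normalised and taken as log2(signal + 2.4), the 20th percentile. Each gene was represented by its brightest probe set, and 12161 genes at or above the 40th percentile were tested with limma 3.58.1 in R 4.3.3 (moderated test; p adjusted by Benjamini-Hochberg over these genes or, for single probe sets, over 22854; limit 0.05). pH pairs were blocked by line and time, line pairs by condition. The fits were tested on simulated data. From the other lists, all passing genes were named if 4 or fewer. For Bmf, the 5 genes of highest correlation were named. Members and lists were chosen with earlier results of these data known. Other scalings, filters, pseudocounts, probe set summaries and variance models, and leaving out each pair, were tried. The number of arrays limits the precision.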

Additional observations from a re-analysis of the deposited data

Results flagged for a closer look

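For 4 member probe sets, every pair of arrays of one time or line lay on one side of 0 in the pH difference and every pair of the other on the opposite side. That is 14.3% of the 28 tested, against 20.1% of all 22854 probe sets, a share below the background. For Bbc3, PUMA, both 4 h pairs were above 0 (0.28 and 0.86 for the TDAG8 and control cells) and both 12 h pairs below it (-1.08 and -0.18), a change of -1.20 between the times that did not pass in limma (adjusted p = 0.173). For Bid the order was the reverse. Probe set 1448560_at went from -0.53 and -1.05 at 4 h to 0.22 and 0.35 at 12 h, a change of 1.07 (adjusted p = 0.134), and 1447873_x_at changed by 0.39 (adjusted p = 0.303). For the weak Bcl2 probe set 1440770_at, with signals of 0.9 to 13, both pairs were below 0 for TDAG8 cells (-0.17 and -0.24) and above 0 for control cells (0.20 and 1.34), a difference of -0.97 that was not tested.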

How the results depend on the processing

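Counts of members that passed moved with the setting, and the share of all genes that passed, given in brackets, moved with them. For single probe sets with a pair left out, that share is not given. For pH over all 4 pairs (1 of 9 genes, 10%), 2 passed with a filter at the 60th percentile (20.5%), a variance trend (17.1%), a pseudocount of 7.7 (13.8%), no block (15.3%) and an added pH by time term (27.9%), 3 with a pseudocount of 32 (18.5%), and 0 when a gene was the average of its probe sets (9.52%). Leaving out 1 pair gave 0 to 1 (0% to 2.29%). For single probe sets (4 of 28), median centring (9.22%) and no filter (1.79%) each gave 1, and leaving out a pair gave 0 to 1. At 4 h (0 genes, 4.65%), median centring gave 1 (8.78%), the stricter filter 3 (21.6%), the trend 4 (19.9%), and pseudocounts of 7.7 and 32 gave 2 and 3 (10% and 18.6%). At 12 h (1 gene, 23.4%), no filter (0%) and the mean of probe sets (19.5%) gave 0. The stricter filter gave 2 (42.1%), and the trend and the pseudocount of 32 gave 3 (36.4% and 35.4%). Leaving out a 4 h pair gave 0 (6.42%). For probe sets at 4 h (1, 4.64%), median centring gave 2 (8.33%), no filter and a pseudocount of 0.5 gave 0 (0% and 1.97%), a pseudocount of 7.7 gave 3 (9.69%), and the stricter filter, the trend and the pseudocount of 32 gave 8 (20%, 18.1% and 17.8%); leaving out a pair gave 0. For probe sets at 12 h (3, 19.9%), no filter gave 0 (0%), the stricter filter 5 (39.5%), and the trend and the pseudocount of 32 gave 6 (33% and 32.9%); leaving out a pair gave 0. The line comparison (0) gave 1 with a pseudocount of 32 (6.23%), and pH by time (0) gave 1 with the trend (15.1%). The mean of probe sets took Mcl1 at 12 h to 0 (adjusted p = 0.999), against -0.44. Over all genes, the pH count of 1220 became 0 without either 12 h pair, 44 without the TDAG8 4 h pair and 278 without the control 4 h pair. Over Bmf, Bak1, Bcl2l1 and the 10 list genes that passed for pH (Fas among them), 0 of 192 values changed sign, 59 lost the call and 7 gained it. Other list genes were not followed. The genes followed were picked for a low p on the same arrays, so their unchanged signs are no further support. The labels carry no replicate numbers, so arrays were paired only by line and time or by condition. The cause of these changes was not tested.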
